A study of Mus musculus with 9 samples.

Results

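A set of 8 genes of the skeletal muscle sarcomere, out of 56748 in the table, was followed through each of 9 RNA-sequencing libraries of newborn mouse heart: Acta1, Myh3, Myh8, Mylpf, Tnnt3, Tnni2, Tnnc2 and Actn3. They were chosen by name, with their values in 1 library, CD36CKO 3, already known. That library stood apart from the other 8 in skeletal muscle transcripts, so the groups are described with and without it. The hearts were taken whole on postnatal day 1 (P1), with 3 libraries from pups lacking Cd36 in the whole body (CD36KO), 3 labelled as lacking it in the heart alone (CD36CKO) and 3 from wild-type pups (WT). The sources used here do not give how the cardiac deletion was driven, the strain, the litters or the pooling of animals. They also do not say whether replicates were separate animals, so a p-value below reflects the variation among libraries, which may be technical. Cd36, the fatty acid transporter that the knockouts target, stood at 60.6 to 72.4 FPKM in CD36KO, 163 to 201 in the libraries labelled CD36CKO and 125 to 163 in WT. Every CD36KO library was thus below WT but still held Cd36 transcript. The libraries labelled CD36CKO did not show lower Cd36 than WT in whole heart. Whether the gene was deleted in their cardiomyocytes was not tested, and CD36CKO below is only the name on those libraries. FPKM counts fragments per kilobase of gene, scaled by sequencing depth, and 14408631 to 20725356 reads per library lay behind it.

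Striated muscle shortens when myosin heads pull on actin filaments, and each protein of that machine is made from a small gene family. Heart and skeletal muscle draw on different members of each family, and around birth skeletal fibres also make embryonic and neonatal myosins that adult fibres replace. Skeletal alpha-actin, Acta1, is the exception among the 8 genes, since cardiomyocytes of the fetal and newborn heart also make it. The others are known chiefly from skeletal fibres, where Mylpf is the fast regulatory light chain, Tnnt3, Tnni2 and Tnnc2 are the 3 subunits of fast troponin, and Actn3 crosslinks thin filaments at the Z-disc of fast fibres.

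Promoter sequences are shown because 7 of the genes were high together in 1 library and the eighth was not. RefSeq (GRCm38.p6) gave the 250 bases before the annotated start for 5 of the 8 genes. The 4 below include Acta1, with the most kinds of match, and Tnnc2, the gene that stayed near 0. Whether the promoters bear on the levels was not tested, and Tnnc2 also overlaps another gene, as described below. Capitals mark the E-box CANNTG read by MyoD-family factors, the CArG box of serum response factor, the MEF2 site, the M-CAT element CATTCC and the TATA box TATAAA, searched on both strands.
Acta1, chr8:123894776-123895025, minus strand: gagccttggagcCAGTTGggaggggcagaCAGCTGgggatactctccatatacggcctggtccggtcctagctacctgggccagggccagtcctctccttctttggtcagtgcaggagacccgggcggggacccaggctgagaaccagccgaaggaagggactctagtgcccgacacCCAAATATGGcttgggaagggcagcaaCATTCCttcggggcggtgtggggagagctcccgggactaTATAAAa
Myh8, chr11:67276874-67277123, plus strand: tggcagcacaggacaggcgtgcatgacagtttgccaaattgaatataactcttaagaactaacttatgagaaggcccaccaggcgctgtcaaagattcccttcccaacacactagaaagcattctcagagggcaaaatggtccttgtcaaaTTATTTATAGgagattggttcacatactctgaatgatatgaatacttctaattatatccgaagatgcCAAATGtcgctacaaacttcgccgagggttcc
Mylpf, chr7:127211358-127211607, plus strand: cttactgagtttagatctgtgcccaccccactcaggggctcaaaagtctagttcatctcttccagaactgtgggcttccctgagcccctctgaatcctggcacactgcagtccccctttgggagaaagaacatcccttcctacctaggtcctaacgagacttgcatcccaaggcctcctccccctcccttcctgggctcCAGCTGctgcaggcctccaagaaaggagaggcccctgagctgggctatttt
Tnnc2, chr2:164779735-164779984, minus strand: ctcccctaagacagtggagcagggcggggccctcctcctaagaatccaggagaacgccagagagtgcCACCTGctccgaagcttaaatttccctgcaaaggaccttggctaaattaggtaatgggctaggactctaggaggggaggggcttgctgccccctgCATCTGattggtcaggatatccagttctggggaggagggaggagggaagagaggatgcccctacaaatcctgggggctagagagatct
Acta1 held 2 E-boxes, a CArG box, an M-CAT element and a TATA box. Myh8 held 1 E-box and a MEF2 site, within which the letters of a TATA box also lie on the opposite strand. Mylpf held 1 E-box, and Tnnc2 held 2. The fifth sequence, that of Myh3, held 1 E-box and a TATA box. E-boxes are common, present in 66.2% of 32851 such windows in the RefSeq table, against 1.47% for the CArG box, 2.92% for the MEF2 site, 12.6% for M-CAT and 12.4% for TATA. So all 5 windows, Tnnc2 included, carried the motif that most windows carry, and the CArG box and the MEF2 site were found in Acta1 and Myh8. These are matches of letters, not measured sites.

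The library labelled CD36CKO 3 held skeletal muscle transcripts at levels that no other library approached. These values chose the genes and are given without a test. Mylpf stood at 685 FPKM in CD36CKO 3 and at 0.923 to 3.21 FPKM in the other 8 libraries, 213 times the highest of them. Acta1, the most abundant, reached 1813 FPKM there, 16.4 times the 111 FPKM of the next library, WT 2. Behind those values lay 46555 reads for Acta1 and 12162 for Mylpf.

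The troponin subunits divided. Tnnt3, which anchors troponin to tropomyosin, was at 314 FPKM in CD36CKO 3 against at most 3.32 elsewhere, a ratio of 94.7. Tnni2, the inhibitory subunit, was at 238 FPKM against at most 4.89, a ratio of 48.7. Tnnc2, the calcium-binding subunit of the same complex, had 2 reads in CD36CKO 3 (0.1496 FPKM, exact Poisson 95% interval 0.242 to 7.22 reads) and 0 in each of the other 8 libraries. A count of 0 allows up to 3 reads, or 0.160 to 0.240 FPKM for this gene, and covers counting error only, so no difference in Tnnc2 was detectable. Of the 8 genes it was the only one that the library did not show, against the name of the set. The deposited positions place Tnnc2 at 164619081 to 164621887 on chromosome 2, where 1662 bases overlap Ube2c, a mitotic ubiquitin-conjugating enzyme on the opposite strand. How reads in such an overlap were counted is not given in the sources used here. Ube2c itself stood at 8.74 FPKM in CD36CKO 3, within its range of 5.66 to 55.3 elsewhere.

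Among the heavy chains, the neonatal myosin Myh8 stood at 99.9 FPKM in CD36CKO 3 and at 0.00988 to 1.15 elsewhere, and the embryonic myosin Myh3 at 23.9 against 0.0158 to 0.172. Adding the adult fast chains, the 5 skeletal myosins summed to 139 FPKM, of which Myh8 made 71.8%, Myh3 17.2%, Myh1 (type IIx) 9.01%, Myh2 (type IIa) 1.95% and Myh4 (type IIb) 0.0857%. The order was thus neonatal, embryonic, then adult. In WT 1, WT 2 and WT 3 the same 5 chains summed to 1.23, 1.22 and 1.08 FPKM, of which Myh8 made 82.3, 94.1 and 93.4% and Myh3 14.0, 2.27 and 4.99%. Myh8 thus led in every WT library, on 218 to 242 reads. The WT shares of Myh3 rested on 21, 3 and 6 reads. In WT 2, Myh1 had 4 reads against 3 of Myh3, too few to order them. In CD36KO 3, Myh3 led on 11 reads against 2 of Myh8, while Myh8 led in CD36KO 1 and 2 and CD36CKO 1 and 2. Actn3 was at 16.1 FPKM in CD36CKO 3 and at 0.120 to 0.902 elsewhere. It had the smallest log2 difference of the 7, 3.17 on the log2(FPKM + 1) scale, against 7.35 for Mylpf. That scale compresses genes that are low elsewhere, and in plain FPKM the ratio of Actn3, 17.8, lay above the 16.4 of Acta1.

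**Figure D1:**
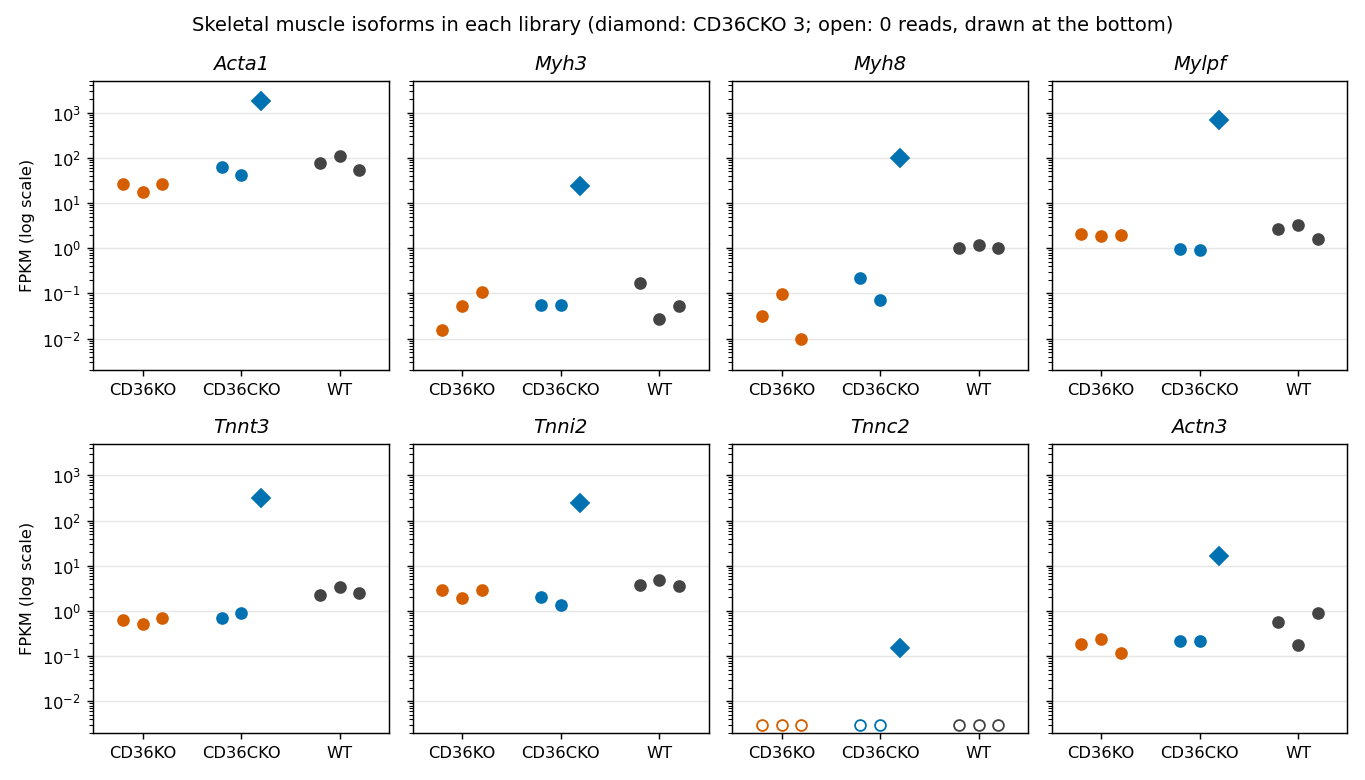
Level of each of the 8 genes in each of the 9 libraries, in FPKM on a log axis, by group; each point is 1 library, the diamond is CD36CKO 3, and open circles at the bottom mark libraries with 0 reads. CD36CKO 3 lies above all other libraries for 7 genes, by 16.4 times for Acta1 to 213 times for Mylpf, while Tnnc2 has 2 reads there and none elsewhere.

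Together the 8 genes took 95866 reads, 0.633% of the reads of CD36CKO 3, against 0.00381 to 0.0198% in the other libraries. Their summed level was 3191 FPKM against 22.5 to 124. Acta1 made 56.8% of that sum in CD36CKO 3 and 79.2 to 93.8% elsewhere, and without it the sums were 1378 FPKM against 3.53 to 12.8.

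Set against the cardiac members of their own families, the skeletal genes were a minority even there. In CD36CKO 3, Acta1 was 25.9% of Acta1 plus Actc1, the cardiac alpha-actin, against 0.323 to 1.03% elsewhere. Tnnt3 was 20.4% of the troponin T genes against 0.0470 to 0.183%, and Tnni2 was 12.4% of the troponin I genes against 0.0861 to 0.251%. Mylpf was 17.2% of the regulatory light chains Mylpf, Myl2 and Myl7, against 0.0245 to 0.0413%. Myh8 was 3.72% and Myh3 0.890% of the sarcomeric heavy chains, and Actn3 2.87% of the muscle alpha-actinins. Tnnc2 was 0.00999% of troponin C. The share of the family was thus largest in actin and near 0 in troponin C. Acta1 and Actc1 have nearly the same coding sequence and the sarcomeric myosins are close copies, so a read count for either can include reads of its relative.

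**Figure D2:**
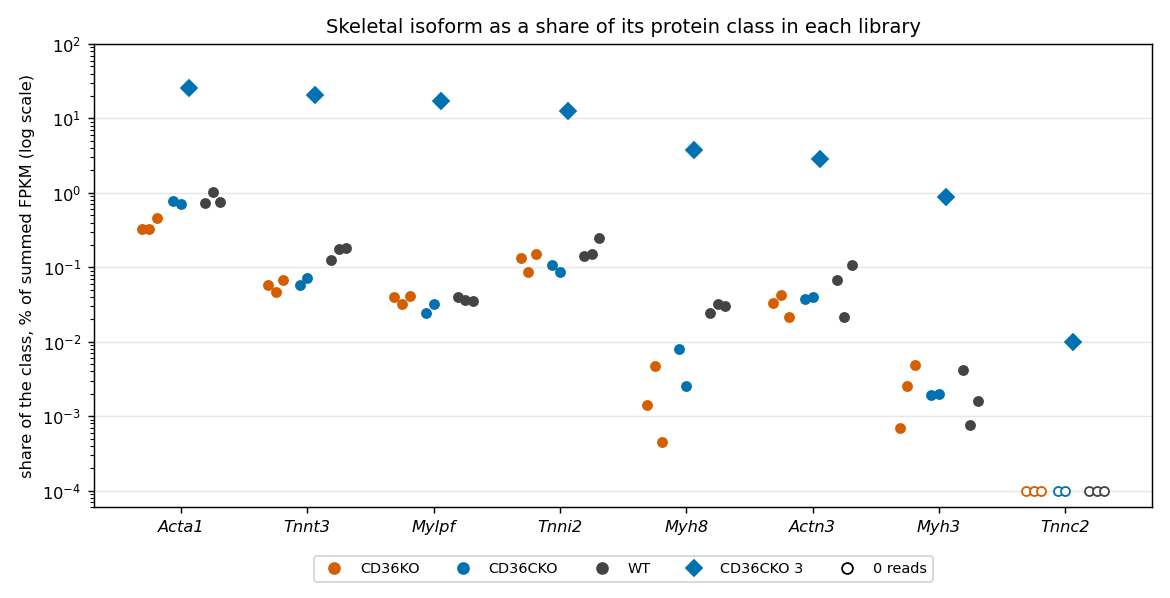
Each skeletal gene as a percentage of the summed FPKM of its protein class (log axis) in each library, by group from left to right; the diamond is CD36CKO 3 and open circles are libraries with 0 reads. In CD36CKO 3 the shares run from 25.9% for Acta1 to 0.00999% for Tnnc2, and for all other libraries no share exceeds 1.03%.

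The cardiac genes of the same library showed no such difference. None of 16 cardiac contractile and calcium-handling genes stood apart in CD36CKO 3. Their median log2 difference from the mean of CD36CKO 1 and 2 was -0.04, from -1.68 for Myl7, the atrial light chain, to 0.33 for the calcium channel Cacna1c, with Myh7, the slow myosin, at -1.24. Their summed level was 19491 FPKM in CD36CKO 3 against 19887 to 38718 in the other 8.

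Counting over the whole table, 32 of 56748 genes (0.0564%) stood apart in CD36CKO 3, that is, were at least 4-fold above the highest other library on the log2(FPKM + 1) scale. The other libraries had 0 to 3 such genes each. Of the 32, 7 were the genes followed here. With a pseudocount of 0.1 in place of 1 the count was 165, against 39 to 97 in the other libraries. Another 6 came from a list of 16 other skeletal contractile genes: Myl1 (fast essential light chain, 325 FPKM), Mybpc1 (slow myosin-binding protein C, 45.1), Myoz1 (a Z-disc calcineurin binder, 41.5), Myot (a Z-disc actin crosslinker, 15.5), Myh1 (12.5) and Mylk2 (skeletal myosin light chain kinase, 5.05). Of that list 13 were highest in CD36CKO 3, as were 6.15% of all genes and 8.29% of those with a mean of at least 1 FPKM, shares that also stand beside the counts of highest genes below. Tnni1 and Tnnt1, the slow troponins that newborn heart also makes, were not, at 515 and 33.8 FPKM in CD36CKO 3 against at most 1001 and 40.0 FPKM elsewhere. In CD36CKO 1 and 2, Tnnt1 was lower, at 16.7 and 14.7 FPKM, and Tnni1 was at 579 and 478.

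Of 14 genes that couple excitation to contraction, 11 were highest in CD36CKO 3 and 2 stood apart: Atp2a1, the calcium pump of fast fibres, at 52.7 FPKM against at most 0.271, and Cacng1, a subunit of the skeletal calcium channel, at 12.4 against at most 0.134. Ryr1, the skeletal calcium release channel, was at 2.39 FPKM against at most 0.0206. Casq1, the fast-fibre calcium store protein, was at 41.6 FPKM, within the 38.7 to 43.9 of WT and above the 20.9 and 17.2 of CD36CKO 1 and 2. Atp2a1 was thus near 0 in the other 8 libraries, while Casq1 was as high in WT as in CD36CKO 3.

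Most regulators of muscle identity were also highest in CD36CKO 3, namely 11 of 13 myogenic genes, of which 3 stood apart. These were Myog (which drives fibre differentiation) at 6.92 FPKM against at most 0.158, Myf6 at 3.79 against at most 0.0508, and the cofactor Vgll2 at 3.70 against at most 0.0330. Pax3 and Lbx1 were not highest there, at 0.00967 and 0.0241 FPKM against at most 0.0400 and 0.0775. Msc differed little, at 2.16 FPKM against at most 1.90. Myod1, Myf5 and the satellite cell factor Pax7 were at 1.61, 0.517 and 0.214 FPKM in CD36CKO 3 and had 0 reads in all other libraries. The summed level of the list was 23.3 FPKM against 1.15 to 2.26. The neuromuscular receptor genes Chrna1 and Chrnd were at 1.49 and 1.04 FPKM against at most 0.0530 and 0. Of 7 genes of the neuromuscular junction, 6 were highest in CD36CKO 3 and none stood apart. Of 12 enzymes of muscle energy metabolism that heart shares, 2 were highest there, among them Ampd1, the muscle AMP deaminase, at 3.12 FPKM against at most 0.0841.

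Markers of other tissues were read in the same way. Ibsp, the bone sialoprotein of bone-forming cells, was at 16.4 FPKM in CD36CKO 3, with 0.139 in CD36KO 1 and 0 in the other 7 libraries. It alone of 6 cartilage and bone genes stood apart. Bglap, osteocalcin, was at 3.001 FPKM against at most 0.309. Of the cartilage genes, Matn1 and Col9a1 were at 0 and 0.248 FPKM against at most 0.0716 and 0.774. Col2a1 and Acan were at 0.239 and 0.785 FPKM against at most 0.136 and 0.710. In all, 4 of the 6 genes were highest in CD36CKO 3. The list summed to 20.7 FPKM against 0.640 to 1.68. In lists added after these values were seen, 7 of 8 genes of bone-forming cells and 6 of 7 of bone-resorbing cells were highest in CD36CKO 3, and none stood apart on the log2(FPKM + 1) scale. In plain FPKM, 4 of the bone-forming and 2 of the bone-resorbing genes were at least 4 times the highest other library, all at low levels, with Sp7, a transcription factor of osteoblasts, at 2.32 against at most 0.0321. All 3 tendon genes were highest in CD36CKO 3 and none stood apart. Tnmd was at 1.90 FPKM against at most 0.0474, and Mkx at 0.175 against at most 0.0568. Scx, the most abundant of them, was at 9.78 FPKM against 6.55 to 9.16 elsewhere. No gene of the fat, lung, liver, thymus, skin and oesophagus or smooth muscle lists stood apart there. The summed levels of the liver and lung lists were highest in another library, CD36KO 1, at 20.8 and 7.27 FPKM, though not every lung gene was highest there.

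**Figure D3:**
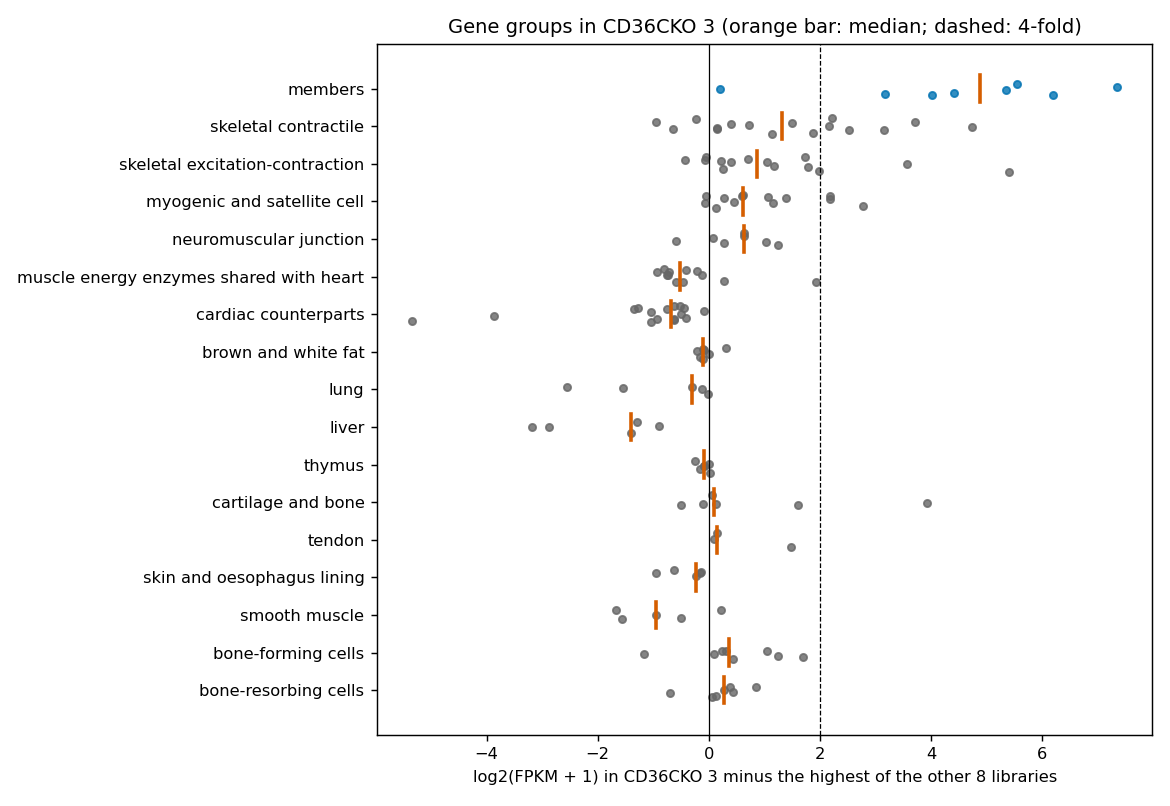
Difference in log2(FPKM + 1) between CD36CKO 3 and the highest of the other 8 libraries for each gene of 17 lists; points are genes (the 8 followed here in blue, named members in the plot), the orange bar is the median of the list and the dashed line is 4-fold. In all, 7 of 8 members lie right of the dashed line, as do 6 of 16 contractile, 2 of 14 excitation-contraction and 3 of 13 myogenic genes.

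Outside every list, the 12 protein-coding genes with the largest difference between CD36CKO 3 and the highest other library were also read. They included genes known from muscle fibres: Ankrd2 (11.7 FPKM against at most 0.393), Smtnl1 (8.02 against 0.190) and Car3, muscle carbonic anhydrase (17.9 against 1.12). They also included genes known from bone and its resorption: Spp1, osteopontin (71.0 against 9.16), Mmp9 (11.98 against 0.616) and Acp5, the acid phosphatase of osteoclasts (7.75 against 0.881). The remaining 6, not assigned to a tissue here, were Atp1b4, C1qtnf3, Arhgap36, Prr32, Rtl1 and Penk. Their log2 differences ran from 2.98 for Atp1b4 down to 1.82 for Penk.

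Chromosomal neighbours outside the myosin family did not share these levels. Tnni2 and Tnnt3 lie within 74.2 kb on chromosome 7 (141995545 to 142069746, in the deposited positions, whose genome build is not stated), and Lsp1, a leukocyte protein gene between them, was at 8.86 FPKM in CD36CKO 3 against 6.08 to 13.9 elsewhere. Prr33, which overlaps Tnnt3 by 7936 bases on the opposite strand, was at 2.93 FPKM against 0.902 to 1.87. Myh3 and Myh8 lie in a cluster of 6 myosin genes over 293 kb of chromosome 11 (66969126 to 67262412). The last gene of that cluster, Myh13, the myosin of extraocular muscle, was at 0.106 FPKM in CD36CKO 3, within its range elsewhere of 0 to 0.154. Acta1 was at 124618508 to 124621490 on chromosome 8, Mylpf at 126808062 to 126813470 on chromosome 7 and Actn3 at 4911244 to 4927937 on chromosome 19, and their neighbours on either side were each below the highest of the other libraries.

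The genotypes were then compared without CD36CKO 3, since that library had chosen the genes. The test was limma on log2(FPKM + 1) over the 12161 genes with a mean of at least 1 FPKM in the 8 libraries, two-sided, with a Benjamini-Hochberg false discovery rate (FDR) threshold of 0.05. Of the 8 genes, 4 passed that filter: Acta1, Tnnt3, Tnni2 and Mylpf. Tnnt3 passed only through its WT level. Myh3, Myh8, Tnnc2 and Actn3 fell below it. In bulk tissue, fewer cells of a type and less RNA per cell cannot be told apart.

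Acta1 fell in CD36KO hearts. It stood at 26.6, 17.8 and 26.4 FPKM in CD36KO against 78.6, 111 and 53.7 FPKM in WT. Every CD36KO library was below every WT library. Means were 23.6 ± 5.01 FPKM in CD36KO and 81.1 ± 28.6 FPKM in WT (SD, n = 3 each), a log2 fold change of -1.70 (SE 0.28, 95% interval -2.34 to -1.06, limma FDR 0.0124). Actc1, its cardiac relative, did not pass the test (-0.55, FDR 0.247), and the share of Acta1 in the pair was 0.323 to 0.458% in CD36KO against 0.741 to 1.03% in WT. With quantile scaling Actc1 did pass, at -0.98 (limma FDR 0.0451). CD36CKO 1 and 2 had 62.5 and 42.0 FPKM of Acta1, overlapping WT, and the difference did not pass (-0.59, SE 0.31, limma FDR 0.240). Without WT 3 it passed (-0.85, limma FDR 0.0429), and without WT 2 it was -0.34 (limma FDR 0.500).

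Tnnt3 was lower in CD36KO and in CD36CKO 1 and 2 than in WT. It stood at 0.634, 0.527 and 0.698 FPKM in CD36KO, at 0.686 and 0.916 FPKM in CD36CKO 1 and 2, and at 2.25, 3.32 and 2.48 FPKM in WT. WT did not overlap with either of them, nor did the share of Tnnt3 in troponin T (0.0470 to 0.0683% in CD36KO, 0.0574 and 0.0711% in CD36CKO 1 and 2, 0.126 to 0.183% in WT). Because it entered the filtered fit through WT alone, its test is taken from the fit without a filter, over 30039 genes, of which 1.86% passed in CD36KO and 1.18% in CD36CKO 1 and 2. The log2 fold change there was -1.18 in CD36KO (SE 0.14, limma FDR 0.0222) and -1.02 in CD36CKO 1 and 2 (SE 0.16, limma FDR 0.0390). The filtered fit gave limma FDR of 0.0045 and 0.0101. These levels rest on 13 to 34 reads per library in CD36KO and CD36CKO 1 and 2, and on 72 to 94 in WT. In the filtered fit, leaving out CD36CKO 1 or CD36CKO 2 ended the call in that group, with limma FDR of 0.0760 and 0.0799.

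Tnni2 stood at 2.84, 1.88 and 2.83 FPKM in CD36KO, at 1.99 and 1.34 FPKM in CD36CKO 1 and 2, and at 3.71, 4.89 and 3.53 FPKM in WT. Both sets lay below WT without overlap, but as a share of troponin I the CD36KO libraries, at 0.0878 to 0.149%, overlapped WT at 0.142 to 0.251%. It passed the test in CD36CKO 1 and 2 (-0.92, SE 0.19, limma FDR 0.0262) and not in CD36KO (-0.52, SE 0.17, limma FDR 0.0758). Mylpf stood at 2.07, 1.87 and 1.92 FPKM in CD36KO, at 0.979 and 0.923 FPKM in CD36CKO 1 and 2, and at 2.66, 3.21 and 1.59 FPKM in WT. CD36KO overlapped WT (-0.21, SE 0.17, limma FDR 0.437), while CD36CKO 1 and 2 lay below it (-0.81, SE 0.19, limma FDR 0.0408). As a share of the regulatory light chains, Mylpf was closer to WT, at 0.0245 and 0.0325% in CD36CKO 1 and 2 against 0.0350 to 0.0400% in WT. The CD36KO shares were 0.0322 to 0.0413%. Both calls in CD36CKO 1 and 2 were lost on leaving out WT 1, WT 2, CD36CKO 1 or CD36CKO 2, where FDR lay between 0.0534 and 0.224. Mylpf also lost its call without any 1 of the 3 CD36KO libraries, and without WT 3 both genes passed in CD36KO, at limma FDR of 0.029 for Mylpf and 0.0419 for Tnni2.

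Read against all genes, 2 of the 4 tested were lower in CD36KO, where 5.81% of genes were lower and 11.1% changed either way. In CD36CKO 1 and 2, 3 of the 4 were lower, against 4.85% of genes lower and 7.68% changed either way. As the filter let Tnnt3 through on its WT level, these counts are a description. Non-overlap is less rare, with 17.8% of tested genes below WT in every CD36KO library and 21.9% in both CD36CKO libraries. Between the groups themselves, none of the 4 differed at the limma threshold in CD36KO minus CD36CKO 1 and 2, where 2.56% of genes did. At an unadjusted p under 0.05 there were 2. The intervals of that difference were -1.82 to -0.40 for Acta1, 0.16 to 1.03 for Mylpf, -0.02 to 0.82 for Tnni2 and -0.50 to 0.20 for Tnnt3, at limma FDR of 0.107, 0.144, 0.295 and 0.648. Acta1 passed this comparison in 4 of 17 alternatives: quantile scaling, removal of mitochondrial and haemoglobin genes, voom on recovered reads, and leaving out WT 3 (limma FDR 0.0372, 0.0397, 0.0483 and 0.0316). Mylpf passed in 1 of 16, leaving out WT 3 (limma FDR 0.0181). All 3 comparisons share libraries.

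Of the 4 genes below the filter, Myh8 separated the groups most clearly. It had 8, 18 and 2 reads in CD36KO, 56 and 20 in CD36CKO 1 and 2, and 240, 242 and 218 in WT, which is 0.0325, 0.0981 and 0.00988 FPKM, 0.225 and 0.0724 FPKM, and 1.01, 1.15 and 1.01 FPKM. The WT libraries differed little among themselves and none overlapped the others. In the fit without a filter, Myh8 was lower in CD36KO (-0.97, SE 0.08, limma FDR 0.0134) and in CD36CKO 1 and 2 (-0.84, SE 0.09, limma FDR 0.0134). With a pseudocount of 0.1, where 2.17% and 1.47% of genes passed, the changes were -3.02 (limma FDR 0.0157) and -2.29 (limma FDR 0.0453). Actn3 stood at 0.181, 0.243 and 0.120 FPKM in CD36KO, 0.212 and 0.220 in CD36CKO 1 and 2, and 0.563, 0.173 and 0.902 in WT, and neither it nor Myh3 passed in any of these fits.

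With CD36CKO 3 included, none of the 4 filtered genes was called in any comparison, while 12.5% of genes were called in CD36KO minus WT, 12.7% in CD36CKO minus WT and 4.53% in CD36KO minus CD36CKO. At an unadjusted p under 0.05 that fit gave 0, 0 and 1 of the 4. The mean of Acta1 in the group labelled CD36CKO was 639 ± 1017 FPKM (SD, n = 3) with that library and 52.3 ± 14.5 FPKM (SD, n = 2) without it. For Mylpf the means were 229 ± 395 FPKM (SD, n = 3) and 0.951 ± 0.0391 FPKM (SD, n = 2). Over all 9 libraries, CD36CKO minus WT became positive for Acta1 (1.12), Mylpf (2.01), Tnnt3 (1.46) and Tnni2 (1.25), at limma FDR of 0.466 to 0.563. The shared spread also grew, so that the unchanged CD36KO differences in Acta1 and Tnnt3 had limma FDR of 0.340 and 0.652.

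**Figure D4:**
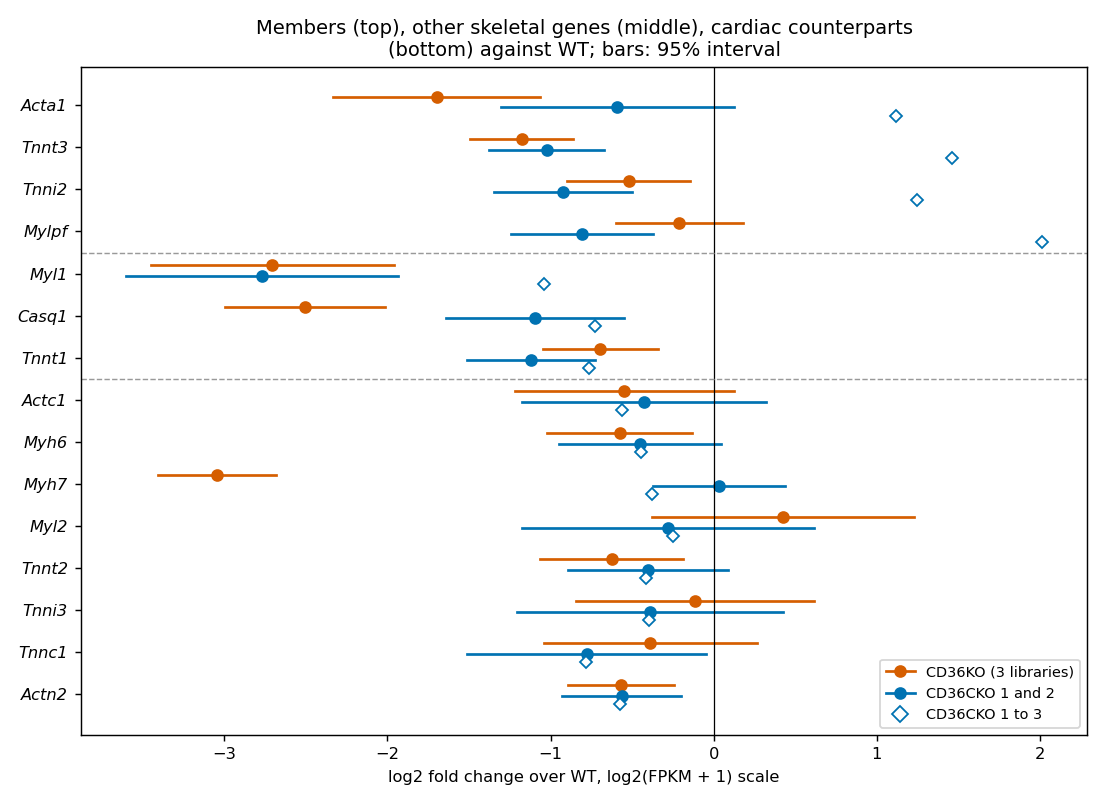
Log2 fold change over WT on the log2(FPKM + 1) scale for the 4 tested members (top), 3 other skeletal genes (middle) and 8 cardiac counterparts (bottom); filled points with 95% intervals from limma are CD36KO and CD36CKO 1 and 2, and open diamonds are CD36CKO with replicate 3 included. The diamonds of the 4 members lie right of 0, from 1.12 for Acta1 to 2.01 for Mylpf, and their filled points lie left of it.

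Other skeletal genes also differed in the 8 libraries. Myl1 averaged 8.78 ± 3.97 FPKM in CD36KO (SD, n = 3), 8.30 ± 3.80 in CD36CKO 1 and 2 (SD, n = 2) and 61.2 ± 15.7 in WT (SD, n = 3), with log2 fold changes of -2.71 (limma FDR 0.0046) and -2.77 (limma FDR 0.0061). Casq1 fell by 2.51 on the log2 scale in CD36KO (limma FDR 0.0024) and by 1.10 in CD36CKO 1 and 2 (limma FDR 0.0334), and it differed between them (-1.41, limma FDR 0.0248). Tnnt1 was lower in both (-0.70 and -1.12, limma FDR 0.028 and 0.0112). Myoz1 was lower in CD36KO (-0.56, limma FDR 0.0445). These calls were not equally stable. In CD36KO, Casq1 kept its call in 17 of 17 alternatives, Myl1 in 16, Tnnt1 in 9 and Myoz1 in 3 of 16. In CD36CKO 1 and 2, Myl1 kept its call in 15 of 17, Tnnt1 in 14 and Casq1 in 7, and the difference in Casq1 between the groups passed in 11. With no filter the calls of Tnnt1 and Myoz1 in CD36KO and of Casq1 in CD36CKO 1 and 2 were lost (limma FDR 0.0696, 0.115 and 0.0925). Single libraries also decided some of them. In CD36KO, the call of Tnnt1 was lost without WT 1, WT 2, CD36KO 1 or CD36KO 3 (limma FDR 0.0669 to 0.109), that of Myoz1 without any library but WT 3 (0.0519 to 0.151) and that of Fbp2, below, without any CD36KO library (0.0734 to 0.0862). In CD36CKO 1 and 2, that of Myl1 was lost without CD36CKO 2 (0.0798), that of Tnnt1 without CD36CKO 1 or CD36CKO 2 (0.0586 to 0.1196), and that of Casq1 without those or WT 1, WT 2 or CD36KO 3 (0.0548 to 0.224). The difference in Casq1 between the groups was lost without CD36KO 3, CD36CKO 1 or CD36CKO 2 (0.0662 to 0.178). In all, 3 of 7 tested contractile genes were lower in CD36KO, where 5.81% of all genes were, and 2 of 7 in CD36CKO 1 and 2, where 4.85% were. Casq1 was the only 1 of 5 tested excitation-contraction genes called in either comparison. In the energy list, 1 of 10 passed in CD36KO, close to the 11.1% of all genes: Fbp2, a muscle fructose bisphosphatase, which was higher (1.77, limma FDR 0.026) and kept that call in 11 of 17 alternatives.

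The myogenic factors were near 0 in these 8 libraries, apart from Msc, a repressor of myogenic factors. The list summed to 1.95, 2.26 and 2.09 FPKM in CD36KO, 1.15 and 1.49 in CD36CKO 1 and 2, and 1.24, 1.89 and 1.83 in WT, and most of each sum was Msc. Without it the other 12 genes summed to 0.315, 0.573 and 0.197 FPKM in CD36KO, 0.298 and 0.398 in CD36CKO 1 and 2, and 0.291, 0.459 and 0.648 in WT. Those sums overlapped between the groups. Mstn, myostatin, had no read in CD36KO, 0.0349 and 0.0631 FPKM in CD36CKO 1 and 2, and 0.0413 to 0.161 in WT. Those values rested on 20 reads over the 8 libraries. In the fit without a filter, Mstn did not pass in CD36KO (limma FDR 0.175). Myog was at 0 to 0.0778 FPKM in CD36KO, overlapping the 0.0663 to 0.112 of WT. Of 16 cardiac genes, 4 were lower in CD36KO, where 5.81% of all genes were: the atrial light chains Myl7 and Myl4, Myh7 (-3.04, limma FDR 0.000141) and Actn2 (cardiac alpha-actinin, -0.57, limma FDR 0.0393). Myh7 kept its call in 17 of 17 alternatives, Myl4 in 14, Myl7 in 10 and Actn2 in 5 (limma FDR up to 0.214). Leaving out CD36KO 1 or CD36KO 3 ended the calls of Myl4 and Myl7, WT 1 or WT 2 that of Myl7, and any library but WT 3 that of Actn2, with limma FDR of 0.0534 to 0.0603 for Myl4, 0.0901 to 0.130 for Myl7 and 0.0513 to 0.1502 for Actn2. None was called by limma in CD36CKO 1 and 2, with 5 at an unadjusted p under 0.05 and 0 by voom. Myl7 was at 43.0, 827 and 29.8 FPKM in CD36KO, 656 and 106 in CD36CKO 1 and 2, and 2215, 3332 and 2475 in WT, so WT was high for it as for Tnnt3 and Myh8. Within CD36KO, Myl7, Myh8 and Myl1 were highest in CD36KO 2, while Acta1, Tnnt3, Tnni2 and Mylpf were lowest there. CD36CKO 1 was above CD36CKO 2 for all of these genes except Tnnt3. The 16 genes summed to 22821 to 26733 FPKM in CD36KO, 19887 and 24037 in CD36CKO 1 and 2, and 23916 to 38718 in WT. The part of atrial content or of total cardiac RNA in the differences was not tested.

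**Figure D5:**
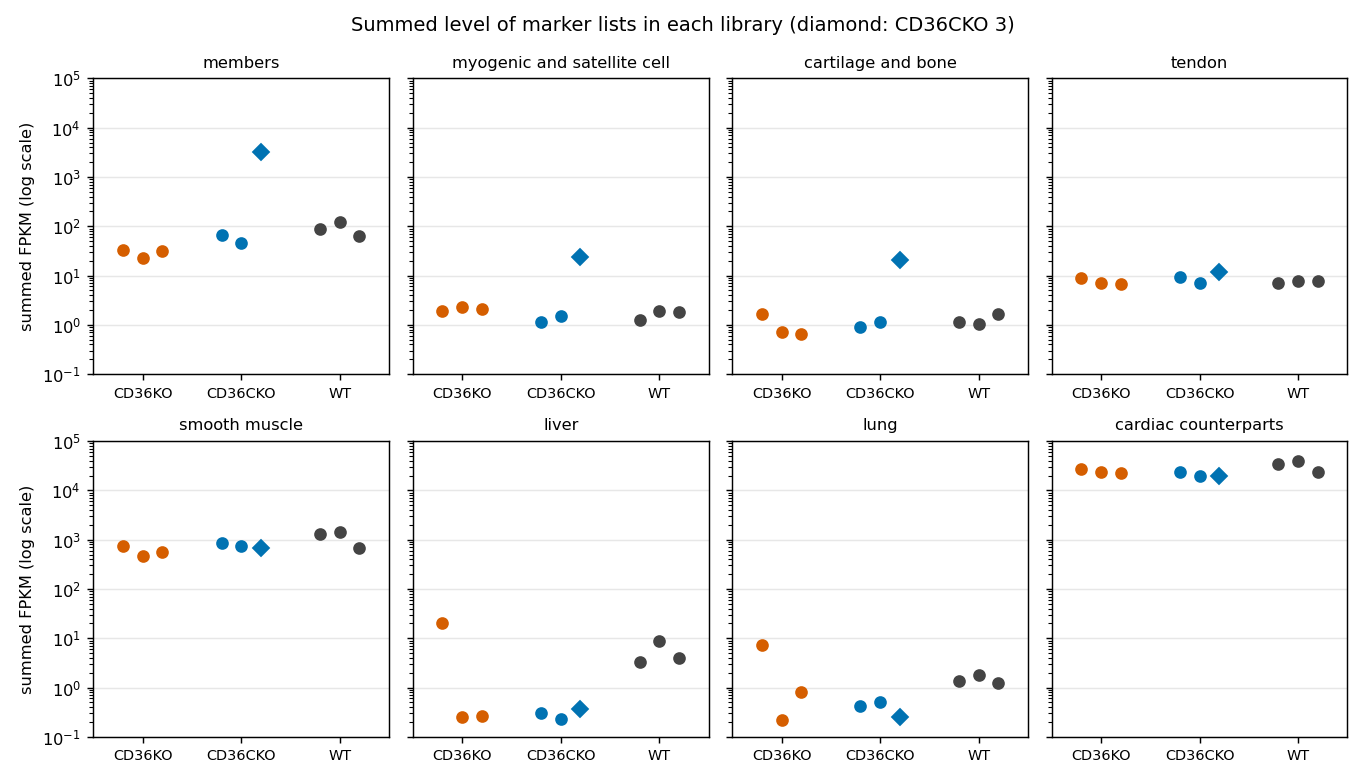
Summed FPKM (log axis) of the 8 members and of 7 marker lists in each library, by group; each point is 1 library and the diamond is CD36CKO 3. The diamond lies far above the rest for the members (3191 against 22.5 to 124), the myogenic list (23.3 against 1.15 to 2.26) and the cartilage and bone list (20.7 against 0.640 to 1.68), and below the rest for the cardiac list (19491 against 19887 to 38718).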

How the data were processed

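Poly-A RNA of whole heart was sequenced as 9 directional dUTP libraries, per the labels' protocols. The authors deposited 1 table of FPKM values with gene length, position and strand, per the file headers. The submitters' processing notes name TopHat2, HISAT2, HISAT and CASAVA, with no version or role. The sources used here do not give the counter, strand setting, genome build or annotation, and the deposited positions match GRCm38 for 0 of the 8 genes. FPKM multiplied by gene length gave whole reads for 100% of values (tolerance 0.05), 15155839 of them in CD36CKO 3. FPKM divides by library size, so an abundant class lowers all others, and log2(FPKM + 1) understates changes of low genes.

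Tests used limma 3.58.1 (R 4.3.3, trended empirical Bayes, 1 mean per group) on 8 libraries, and were checked on simulated data. Alternatives were all 9 libraries, a pseudocount of 0.1, no filter or a mean of 5 FPKM, quantile scaling, removal of mitochondrial and haemoglobin genes, voom on recovered reads, a replicate block and each library left out. Genes named were the 8 members, their cardiac counterparts, list genes past 4-fold in CD36CKO 3 or at 0, and neighbours. Also named were the 12 protein-coding genes outside the lists with the largest difference in CD36CKO 3. Further genes of the lists were named after their values were seen. These were Ryr1, Tnni1, Tnnt1, Casq1, Chrna1, Chrnd, Ampd1, Bglap, Col2a1, Acan, Col9a1, Tnmd, Scx, Mkx, Fbp2, Msc, Mstn, Pax3, Lbx1 and Sp7. The members and lists were chosen with earlier results of these data known, and the bone-forming and bone-resorbing lists were added later. Of the marker lists, 1 is not reported here.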

Additional observations from a re-analysis of the deposited data

Results flagged for a closer look

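Ibsp, bone sialoprotein, was at 16.4 FPKM in CD36CKO replicate 3, in a gene outside the comparisons of genotypes, with 0 reads in all 3 WT libraries. It is raised here because a marker of bone-forming cells lay above its level in the WT libraries, in the same library as the skeletal muscle transcripts. The part of bone tissue in that library was not tested.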

How the results depend on the processing

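Of 654 values of single genes under another setting, 565 kept their direction and side of the threshold, 42 lost the call, 25 gained one and 22 changed sign. Most of these genes were not called in the main fit, and staying uncalled counts among the 565, so that number does not measure the stability of calls. Most of the 42 losses were of Actn2 (12) and Myl7 (7) in CD36KO and of Mylpf (12) and Tnni2 (7) in CD36CKO 1 and 2. In CD36KO, Acta1 and Tnnt3 kept their calls in the filtered fit when any 1 of the 8 libraries was left out. Tnnt3 entered that fit through its WT level, so this does not measure its stability. The libraries were not left out in turn in the fit without a filter. With all 9 libraries, members past the threshold were 0 in all 3 comparisons, against 2 in CD36KO minus WT, 3 in CD36CKO 1 and 2 minus WT and 0 in CD36KO minus CD36CKO 1 and 2; CD36CKO minus WT became 1.12 for Acta1, 2.01 for Mylpf, 1.46 for Tnnt3, 1.25 for Tnni2 and -0.38 for Myh7, and CD36KO minus CD36CKO became -2.22 for Mylpf, -1.77 for Tnni2, 0.016 for Actc1 and 0.0058 for Actn2. CD36CKO 3, added to the fit, is the difference. A mean of at least 5 FPKM left 1 member called in CD36KO and 0 in CD36CKO 1 and 2, since fewer members were tested. In CD36KO minus CD36CKO 1 and 2, quantile scaling, removal of mitochondrial and haemoglobin genes and voom each called 1 member, Acta1 (limma FDR 0.0372, 0.0397 and 0.0483; 0.0316 to 0.374 over all alternatives).

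Over all genes, 1351 were called in CD36KO minus WT, 934 in CD36CKO 1 and 2 minus WT and 311 in CD36KO minus CD36CKO 1 and 2. No filter gave 559, 353 and 119. No filter with a pseudocount of 0.1, chosen after seeing the data, gave 653 and 441 for the comparisons with WT. All 9 libraries gave 1547 for CD36CKO minus WT and 553 for CD36KO minus CD36CKO, and a mean of 5 FPKM gave 185 for the last. Removing mitochondrial and haemoglobin genes gave 768 in CD36KO minus WT and 131 in CD36KO minus CD36CKO 1 and 2, moved the median gene by 0.10, 0.23 and -0.12 in the 3 comparisons, and raised the members' sum in CD36CKO 3 to 3513 FPKM. Higher calls were then 67.4% of all in CD36KO and 74.0% in CD36CKO 1 and 2, against 47.7% and 36.8%, and quantile scaling and voom gave 48.7% and 56.7% for the second. The cause of these shifts was not tested. Genes standing apart in CD36CKO 3 were 32, 165 with a pseudocount of 0.1 and 21 with a mean of at least 1 FPKM. Leaving out 1 library gave 202 to 3393, 48 to 3748 and 2 to 1031 calls, highest without WT 3, and 2 to 4, 0 to 4 and 0 to 2 members. Without CD36CKO 1 or CD36CKO 2 the lone sample of that group is assumed to vary like the others.

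The labels give no meaning for replicate numbers. Deviations from group means correlated at -0.459 to 0.078 over 7 same-numbered pairs and at -0.400 to 0.459 over 14 other pairs. Deviations of the 2 CD36CKO libraries mirror each other by construction, so these values cannot decide whether a number marks a batch. As a block, replicate numbers left 782, 336 and 126 calls and 1 member, Tnnt3, called in CD36CKO 1 and 2.

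Other values that changed sign in CD36KO minus WT were Myl2 (-0.15, quantile scaling) and Tnni3 (0.029 without mitochondrial and haemoglobin genes, -0.50 to 0.15 with 1 library left out). In CD36CKO 1 and 2 minus WT, quantile scaling gave 0.062 for Tnnt2 and 0.095 for Tnni3, and leaving out 1 library gave -0.078 to 0.137 for Myh7. In CD36KO minus CD36CKO 1 and 2, quantile scaling gave -0.11 for Tnni3, the replicate block gave 0.011 for Actc1, and leaving out 1 library gave -0.34 to 0.094 for Actc1 and -0.026 to 0.019 for Actn2. In CD36CKO 1 and 2 minus WT, Mylpf kept its call in 3 of 16 alternatives and Tnni2 in 8 of 16. The 8 libraries were not left out in turn for Myh8. Low reads limit Tnnt3, Myh3, Myh8 and Actn3 outside CD36CKO 3.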
